A study of Caenorhabditis elegans with 9 samples.

Results

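Of the 31106 genes in the deposited tables, the 7 genes WBGene00018648, ZC15.3, C15B12.4, C15B12.8, *spp-21*, F41G4.7 and *ugt-46* are described here because their mRNA was higher in *hrde-1* mutants with little or no rise in *hrde-2* mutants. They were picked from the counts described here, so that their levels in the 3 genotypes are a description and were not tested. All 7 had enough reads to be among the 12141 genes that entered the tests. That description held for 5 of them. The others, WBGene00018648 and ZC15.3, were also above wild-type in every *hrde-2* library, by far less than in *hrde-1*.

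*Caenorhabditis elegans* has nuclear Argonaute proteins, which carry small RNAs into the nucleus and silence the genes those RNAs match. HRDE-1 is the nuclear Argonaute of the germline and acts in the inheritance of silencing, with loss of nascent transcription and repressive histone marks at its targets. HRDE-2 is found in germ granules and takes part in the choice of the small RNAs that HRDE-1 binds. A comparison of the mutants with each other asks whether the removal of the Argonaute and the loss of its partner leave the same mRNAs elevated.

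The libraries were made from polyadenylated RNA of whole animals, 1-day-old adults grown at 20 °C and collected about 68 h after L1 arrest. The groups were N2 wild-type, *hrde-1(tm1200)* in strain USC661 and *hrde-2(qe20)* in strain FD53, with 3 libraries each, described as biological triplicates. Each mutant group is 1 allele in 1 strain, so that the allele and the strain background cannot be told apart. In whole animals, fewer cells of a type and less RNA per cell cannot be told apart either. Counts summed to between 5801326 and 11884233 per library, and ribosomal RNA genes took 19.3% to 31.4% of them. Levels are given as CPM, counts per 1000000 of the scaled library size, in which 3 counts, used as the floor, correspond to 0.248 to 0.537 CPM. The targeted genes were lower in their own mutants: *hrde-1* had 108 to 144 CPM in *hrde-1* against 200.4 to 355 CPM in wild-type, and *hrde-2* had 14.3 to 19.3 CPM in *hrde-2* against 22.9 to 52.1 CPM in wild-type. Neither was absent from its mutant, and which of their bases the alleles remove was not examined.

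By the edgeR quasi-likelihood test at an adjusted p under 0.05, 7 of the 7 genes were called higher in *hrde-1* than in wild-type, where 1.24% of all genes tested were called higher. For *hrde-2* and wild-type, 2 of 7 were called higher and 0 lower, where 7.57% and 4.25% of all genes were. Between the mutants 7 of 7 were called lower in *hrde-2*, where 2.45% of all genes were called lower and 3.22% higher. By single libraries, 7 of 7 had every *hrde-1* library above every wild-type one (12.8% of all genes tested) and 7 of 7 every *hrde-2* library below every *hrde-1* one (15.8%). The *hrde-2* libraries lay all above wild-type for 2 of 7 (15.7% of all genes) and all below it for 1 (16.5%). These contrasts chose the genes, so the counts support nothing by themselves. The median log2 fold change of the 7 genes was 5.10 in *hrde-1*, 0.47 in *hrde-2* and -3.44 between the mutants, and over all genes tested it was -0.031, -0.097 and -0.0072. The comparisons share libraries and are not independent of each other. Of all genes tested, 62, or 0.511%, were called higher in *hrde-1* without being called higher in *hrde-2*, and 46 of them, or 0.379%, were also called lower in *hrde-2* than in *hrde-1*. The 7 genes were part of a group of 56, or 0.461% of the genes tested, that were called higher in *hrde-1* than in wild-type and lower in *hrde-2* than in *hrde-1*. Ordered within these 56 from the lowest log2 fold change of *hrde-2* against *hrde-1*, C15B12.8 was at place 3, ZC15.3 at 4, *spp-21* at 10, WBGene00018648 at 18, F41G4.7 at 24, C15B12.4 at 26 and *ugt-46* at 47.

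The calls of the 7 genes rested on single libraries to a degree. With replicate 2 or 3 of wild-type or replicate 1 of *hrde-1* left out, 4 of 7 were called higher in *hrde-1*. Between the mutants, 3 were called without *hrde-1* replicate 1, 4 without *hrde-2* replicate 2 and 3 without *hrde-2* replicate 3. Of the 2 calls that set *hrde-2* apart from wild-type, 1 was left without *hrde-2* replicate 2 or *hrde-2* replicate 3, and 0 when only the 6 libraries of these groups were fitted.

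**Figure D1:**
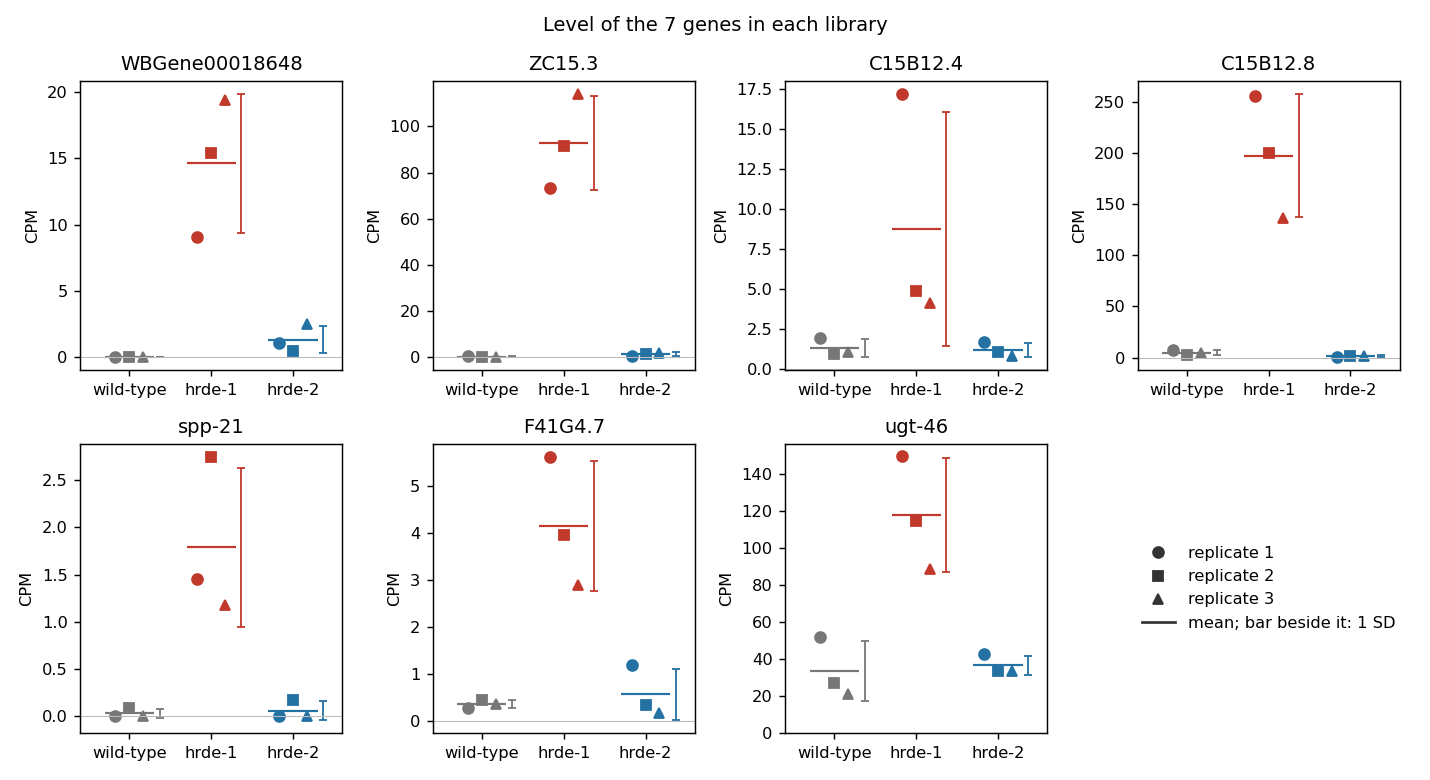
Level of each of the 7 genes in every library, in CPM on a linear axis, by genotype. Symbols are libraries, with the symbol giving the replicate number, horizontal lines are means, and the bar beside each line spans 1 SD on either side. In all 7 panels the 3 *hrde-1* libraries lie above every wild-type and every *hrde-2* library.

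The pseudogene WBGene00018648 lies on the minus strand of chromosome IV, from 4130503 to 4134631 (WBcel235), with 1848 bp of exons in 4 blocks. No wild-type library held a read of it, which allows at most 3 counts each. The *hrde-1* libraries held 100, 129 and 182 counts (9.05, 15.4 and 19.4 CPM in replicates 1, 2 and 3), and the *hrde-2* libraries 10, 5 and 30 (1.07, 0.420 and 2.48 CPM). The 3 groups did not overlap, but *hrde-2* replicate 2, at 0.420 CPM, was below the floor of wild-type replicate 3, 0.537 CPM. The mean of 14.6 ± 5.22 CPM (SD, n = 3) in *hrde-1* was at least 36.9-fold higher than the floor in wild-type. The mean of 1.32 ± 1.05 CPM in *hrde-2* was at least 3.34-fold higher than that floor and 9.05% of the level in *hrde-1*. For this gene the fitted log2 fold changes of 10.14 (SE 1.09) and 6.70 (SE 1.37) against wild-type depend on the prior count, because wild-type was at 0, whereas that between the mutants, -3.44 (SE 0.56), compares counted reads.

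ZC15.3 is a protein-coding gene on the plus strand of chromosome V, from 20303588 to 20304908, with 1165 bp of exons in 4 blocks. Wild-type libraries held 2, 0 and 1 counts of it. The *hrde-1* libraries held 809, 764 and 1069 (73.2, 91.3 and 114 CPM). The *hrde-2* libraries held 4, 18 and 23 (0.428, 1.51 and 1.90 CPM). The rise in *hrde-1*, to 92.8 ± 20.4 CPM (SD, n = 3), was at least 234-fold. The *hrde-2* level of 1.28 ± 0.763 CPM was at least 3.23-fold higher than the wild-type floor, all 3 libraries lay above all wild-type libraries, and *hrde-2* replicate 1 with its 4 counts was near the floor. Between the mutants the level of ZC15.3 differed 72.5-fold (log2 fold change -6.12, SE 0.42).

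C15B12.4 and C15B12.8 are neighbours on chromosome X that point away from each other, with 525 bp between them. C15B12.4, a protein-coding gene, lies on the minus strand from 6470366 to 6473748, with 15 exon blocks and 1853 bp of exons. C15B12.8, also protein-coding, lies on the plus strand from 6474274 to 6476645, with 8 exon blocks and 1280 bp of exons. Neither overlaps another annotated gene, and a read from one is not counted for the other.

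C15B12.4 had 15, 11 and 6 counts in the wild-type libraries, 190, 41 and 39 in those of *hrde-1*, and 16, 13 and 10 in those of *hrde-2*. In CPM the *hrde-1* libraries stood at 17.2, 4.90 and 4.16, so that replicate 1 alone carried most of the mean of 8.75 ± 7.32 CPM (SD, n = 3), which was 6.59-fold the wild-type mean of 1.33 ± 0.557 CPM. All *hrde-1* libraries were still above the highest of the other groups, 1.97 CPM. In *hrde-2* the mean was 1.21 ± 0.454 CPM, within the range of wild-type. For C15B12.4 the log2 fold change of *hrde-1* was 2.73 (SE 0.59), or 1.80 without *hrde-1* replicate 1. Between the mutants the difference was -2.87 (SE 0.58) on the log2 scale, or -1.87 without that library.

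C15B12.8 was the most abundant of the 7 genes in *hrde-1*. It had 59, 26 and 26 counts in the wild-type libraries, 2830, 1674 and 1278 in those of *hrde-1*, and 5, 23 and 24 in those of *hrde-2*. The *hrde-1* libraries stood at 136 to 256 CPM and wild-type at 7.74, 2.23 and 4.66 CPM. The mean of 197 ± 60.0 CPM (SD, n = 3) in *hrde-1* was 40.5-fold the wild-type mean of 4.87 ± 2.76 CPM. In *hrde-2* the level went the other way: 0.535, 1.93 and 1.98 CPM were all below the lowest wild-type library, where 16.5% of all genes tested had every *hrde-2* library below every wild-type one. The log2 fold changes of C15B12.8 were 5.37 (SE 0.46) in *hrde-1*, -1.63 (SE 0.50) in *hrde-2* and -7.0 (SE 0.51) between the mutants, a 133-fold difference and the widest of the 7. When each library was left out in turn, the value in *hrde-2* ran from -2.01 to -0.95. Although C15B12.4 and C15B12.8 start next to each other, their levels in *hrde-1* differed: per kilobase of exon C15B12.8 had 154 CPM and C15B12.4 had 4.72.

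Saposin-like proteins, the SPP family, bind and disturb membranes, and several act against bacteria in the worm intestine. The gene *spp-21* lies on the plus strand of chromosome X from 11490130 to 11490494 and is the shortest of the 7, with 312 bp of exons in 2 blocks. It had 0, 1 and 0 counts in the wild-type libraries, 16, 23 and 11 in those of *hrde-1*, and 0, 2 and 0 in those of *hrde-2*. Both wild-type and *hrde-2* were at or under the floor, so no fold is given between them. The *hrde-1* level of 1.79 ± 0.841 CPM (SD, n = 3), with 1.45, 2.75 and 1.17 CPM in the libraries, was at least 4.52-fold higher than wild-type and at least 6.54-fold higher than *hrde-2*. The result for *spp-21* thus rests on 50 reads in *hrde-1*. Its fitted log2 fold change in *hrde-2* was 0.47 (SE 1.54), and leaving out replicate 2 moved it to -1.98 if taken from *hrde-2* and to 2.45 if taken from wild-type, since these libraries hold the only reads of both groups.

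F41G4.7, a protein-coding gene, lies on the minus strand of chromosome X from 16833588 to 16836404, with 2055 bp of exons in 5 blocks. The Ensembl annotation starts it at 16834896, so the deposited counts may hold reads from sequence that the newer gene model leaves out. The gene had 2, 5 and 2 counts in the wild-type libraries, 62, 33 and 27 in those of *hrde-1*, and 11, 4 and 2 in those of *hrde-2*. The mean rose 11.8-fold, from 0.350 ± 0.0836 to 4.14 ± 1.38 CPM (SD, n = 3), with 5.61, 3.94 and 2.88 CPM in the *hrde-1* libraries. The *hrde-2* mean of F41G4.7 was 0.559 ± 0.542 CPM: replicate 1 stood at 1.18 CPM, above all wild-type libraries, and replicates 2 and 3 at 0.336 and 0.165 CPM. Its fitted log2 fold change in that mutant was 0.56 (SE 0.76) and turned to -0.41 without replicate 1, and the change between the mutants went from -2.93 (SE 0.61) to -3.93.

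UDP-glucuronosyltransferases, the UGT family, attach sugars to small lipophilic molecules and are known for the clearance of foreign compounds. The gene *ugt-46* lies on the minus strand of chromosome X from 525929 to 530289, with 1891 bp of exons in 10 blocks. Unlike the others it was well expressed without any mutation: the wild-type libraries held 395, 314 and 118 counts of it, with 1654, 960 and 829 in *hrde-1*, and 397, 400 and 405 in *hrde-2*. In wild-type replicate 1 it reached 51.8 CPM, against 26.9 and 21.1 CPM in replicates 2 and 3. The *hrde-1* libraries stood at 150, 115 and 88.4 CPM, all above that library, and the mean of 118 ± 30.7 CPM (SD, n = 3) was 3.53-fold the wild-type mean of 33.3 ± 16.3 CPM. The *hrde-2* mean of *ugt-46*, 36.5 ± 5.16 CPM, lay inside the wild-type range. Its log2 fold change was 1.82 (SE 0.31) in *hrde-1*, 0.13 (SE 0.31) in *hrde-2* and -1.69 (SE 0.31) between the mutants. Without wild-type replicate 1 the first of these was 2.31 and the second 0.67.

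**Figure D2:**
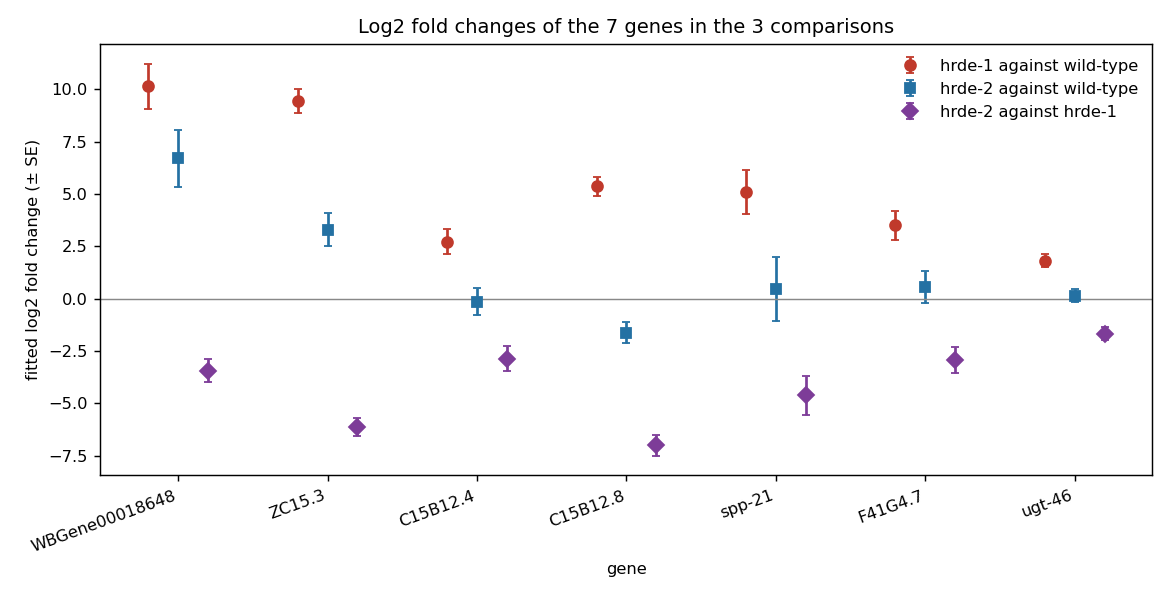
Fitted log2 fold change of each of the 7 genes in *hrde-1* against wild-type (circles), *hrde-2* against wild-type (squares) and *hrde-2* against *hrde-1* (diamonds), with bars of 1 SE. Of the squares, those of WBGene00018648 and ZC15.3 lie well above 0, that of C15B12.8 lies below 0, and the others lie within 1 SE of it.

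The 7 genes differed widely in abundance. Per kilobase of exon, the scale on which genes can be compared, the order in *hrde-1* was C15B12.8 with 154 CPM, ZC15.3 with 79.7, *ugt-46* with 62.2, WBGene00018648 with 7.91, *spp-21* with 5.74, C15B12.4 with 4.72 and F41G4.7 with 2.02. The SDs of *ugt-46* (16.3 per kilobase) and ZC15.3 (17.5) overlap, as do those of WBGene00018648 (2.83), *spp-21* (2.70) and C15B12.4 (3.95). The SD of F41G4.7 (0.670) overlaps that of C15B12.4. In wild-type *ugt-46* led with 17.6 CPM per kilobase, followed by C15B12.8 with 3.81, and the other 5 were under 1 CPM per kilobase. Wild-type thus held 28.3% of the *hrde-1* level of *ugt-46*, 15.2% of that of C15B12.4, 8.44% of that of F41G4.7 and 2.47% of that of C15B12.8.

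Among the *hrde-1* libraries the 7 genes did not follow 1 order. C15B12.4, C15B12.8, F41G4.7 and *ugt-46* were highest in replicate 1 and lowest in replicate 3, and were 4 of the 5 genes on chromosome X. WBGene00018648 and ZC15.3, the genes on autosomes, had the reverse order, and *spp-21* was highest in replicate 2. Of all genes tested, 39.4% were highest in *hrde-1* replicate 1. The share of all genes with either full order was not computed, so these orders cannot be read as a difference between X and the autosomes. Relative to the mean of the *hrde-1* libraries, replicate 1 stood at 196% for C15B12.4, 135% for F41G4.7, 129.7% for C15B12.8 and 127% for *ugt-46*, and at 61.9% for WBGene00018648 and 78.9% for ZC15.3.

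Some of the 7 marker lists had the same orders among the *hrde-1* libraries and others did not. The summed level of 9 intestine markers, among them *elt-2*, *ges-1* and the vitellogenins *vit-2*, *vit-5* and *vit-6*, was 94961, 63613 and 55590 CPM in *hrde-1* replicates 1, 2 and 3, the order of C15B12.4, C15B12.8, F41G4.7 and *ugt-46*. It ranged from 51928 to 71124 CPM in wild-type and from 29327 to 44068 CPM in *hrde-2*. Of the 9 markers, 0 were called in *hrde-1* (1.55% of all genes tested were). In *hrde-2*, 4 of them were called lower, where 4.25% of all genes were. A sum gives most weight to the most abundant mRNAs, and the median log2 fold change of the 9 was 0.078 in *hrde-1* and -0.82 in *hrde-2*. The 6 body wall muscle markers had the same order in *hrde-1*, from 4820 to 1818 CPM, with a range of 2026 to 3455 CPM in wild-type and 1017 to 2115 CPM in *hrde-2*. The 10 germline markers had the order of WBGene00018648 and ZC15.3, with 3349, 3565 and 4041 CPM in *hrde-1*, and ranged from 1978 to 3480 CPM in wild-type and from 3556 to 4410 CPM in *hrde-2*. All of the intestine, muscle and germline markers had reads in every library. The summed major sperm protein mRNAs stood at 366, 103 and 86.5 CPM in wild-type replicates 1, 2 and 3. They stood at 306 to 458 CPM in *hrde-1*, lowest in replicate 1, and at 1074 to 1198 CPM in *hrde-2*. Within wild-type, replicate 1 had the lowest germline and oocyte sums, at 1978 and 2148 CPM. It had the highest sperm, muscle, hypodermis and neuron sums and was between the others for intestine. It was also the highest wild-type library for C15B12.4, C15B12.8 and *ugt-46*, whereas F41G4.7 was highest in replicate 2. The 6 hypodermis markers, also somatic, had the germline order and not that of intestine and muscle, with 1095, 1342 and 1589 CPM in *hrde-1*. Neither order was seen for 8 oocyte markers, which stood at 4954, 4827 and 5131 CPM, or for 7 neuron markers, at 157, 137.9 and 137.9 CPM. Hypodermis markers ranged from 1033 to 1384 CPM in wild-type and from 1255 to 1443 CPM in *hrde-2*, oocyte markers from 2148 to 4438 and 2980 to 4123 CPM, and neuron markers from 127 to 148 and 123 to 126 CPM. Called higher in *hrde-2* were 26 of 27 tested major sperm protein genes, 3 of 10 germline and 1 of 6 muscle markers (7.57% of all genes tested). Of 8 oocyte markers, 1 was called lower in *hrde-2* (4.25% of all genes tested). None of the 5 hypodermis and 7 neuron markers tested was called in *hrde-2*, where 11.8% of all genes were. With so few markers this does not show that these lists were unchanged. No marker of any list was called in *hrde-1* (1.55% of all genes). The part of tissue makeup in the levels of the 7 genes was not tested.

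**Figure D3:**
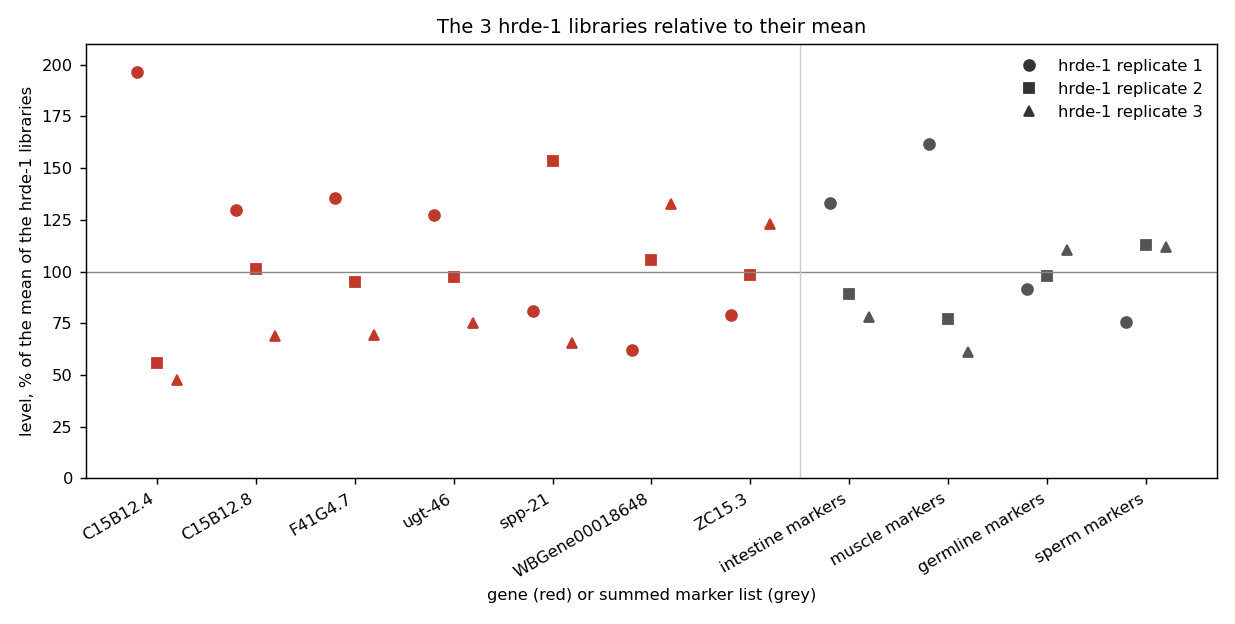
Level in each *hrde-1* library as a percentage of the mean of the 3 *hrde-1* libraries. Shown are the 7 genes (red) and the summed intestine, muscle, germline and sperm marker lists (grey), and symbols give the replicate. The hypodermis list, which had the germline order, and the oocyte and neuron lists, which had neither order, are not drawn. Replicate 1 is highest for C15B12.4, C15B12.8, F41G4.7, *ugt-46* and the intestine and muscle markers, and lowest for WBGene00018648, ZC15.3 and the germline and sperm markers.

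Of the 7 genes, 5 lie on chromosome X, where 1625 genes were tested, or 13.4% of all. On X, 7 genes were called higher in *hrde-1*, which is 0.431% of those tested there, against 0.991% to 1.63% on the other nuclear chromosomes. The 5 genes of the set are also the only genes on X among the 56 described above. They sit at 4 places, since C15B12.4 and C15B12.8 adjoin each other.

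The genes around the 7 were not used to choose them, and their tests are given as they came from the fit over all genes. Within 10000 bp of the 7 genes, 41 other genes are annotated, 31 had a read and 14 were tested. Between *hrde-1* and wild-type 4 of the 14 were called higher and 1 lower, in all 35.7%, where 1.55% of all genes tested were called. For *hrde-2* and wild-type it was 1, called higher (7.14%, against 11.8% of all genes), and between the mutants 1 was called higher and 4 lower (35.7%, against 5.67%). Of the 5 called in *hrde-1*, 3 lie around ZC15.3, 1 near WBGene00018648 and 1 beside *spp-21*, so they are not spread over the 7 genes. The loci of C15B12.4 and C15B12.8, F41G4.7 and *ugt-46* had no called neighbour, except that *pept-1*, near C15B12.4, was called lower in *hrde-1* when no filter on low counts was used. Left out 1 at a time, wild-type replicate 2, *hrde-1* replicate 2 and *hrde-1* replicate 3 each lowered the count in *hrde-1* from 5 to 3. Between the mutants it was 2 without *hrde-1* replicate 1, *hrde-2* replicate 1 or *hrde-2* replicate 2 and 3 without *hrde-2* replicate 3.

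ZC15.3 had elevated genes on both sides, all on its own strand. The pseudogene WBGene00014977 ends 144 bp before ZC15.3 (chromosome V, 20302135 to 20303443). It had 2, 2 and 0 counts in the wild-type libraries, 96, 50 and 86 in those of *hrde-1*, and 5, 15 and 29 in those of *hrde-2*, which is at least 20.1-fold higher in *hrde-1* and at least 3.53-fold higher in *hrde-2*. It was called in all 3 contrasts by the edgeR test: log2 fold change 5.54 (SE 0.69, adjusted p = 7.51e-04) in *hrde-1*, 3.06 (SE 0.74, adjusted p = 0.0187) in *hrde-2* and -2.47 (SE 0.50, adjusted p = 0.0178) between the mutants. Like ZC15.3, WBGene00014977 was thus also higher in *hrde-2*, at a lower level. That call was lost when replicate 2 or 3 of wild-type or of *hrde-2* was left out (edgeR adjusted p from 0.0506 to 0.0706), and the call between the mutants without *hrde-1* replicate 1, *hrde-2* replicate 1 or *hrde-2* replicate 2 (adjusted p from 0.0698 to 0.110).

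On the other side of ZC15.3, ZC15.1 starts 1194 bp further on and ZC15.10 starts 5239 bp further on. ZC15.1 had 0, 1 and 1 counts in the wild-type libraries, 22, 18 and 14 in those of *hrde-1*, and 1, 2 and 0 in those of *hrde-2*. It was at least 4.74-fold higher in *hrde-1* than the floor in wild-type (edgeR, adjusted p = 0.0216) and at least 6.86-fold higher than in *hrde-2* (adjusted p = 0.0107). ZC15.10 had 5, 4 and 5 counts in the wild-type libraries, 40, 49 and 39 in those of *hrde-1*, and 16, 12 and 5 in those of *hrde-2*, and changed by 2.91 on the log2 scale in *hrde-1* (SE 0.58, adjusted p = 0.0235) and -2.13 between the mutants (SE 0.52, adjusted p = 0.0350). For ZC15.10 in *hrde-2* the value was 0.77 (SE 0.61, adjusted p = 0.443) against wild-type. The call of ZC15.1 in *hrde-1* was lost without wild-type replicate 2 or 3 or any *hrde-1* library (adjusted p from 0.0561 to 0.112), and that of ZC15.10 when replicate 2 of wild-type or replicate 2 or 3 of *hrde-1* was left out (adjusted p from 0.0591 to 0.104). Between the mutants ZC15.1 lost its call without *hrde-1* replicate 1 or any *hrde-2* library (adjusted p from 0.0527 to 0.0576), and ZC15.10 without any 1 of the 6 mutant libraries (0.0559 to 0.153). With the replicate number as a block, ZC15.10 also lost that call (adjusted p = 0.0511). Of the other annotated genes in this window, none had more than 2 reads over all 9 libraries.

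F49F1.7, a protein-coding gene on the same strand as WBGene00018648, lies 4745 bp from it (chromosome IV, 4123525 to 4125757). It had 7, 18 and 5 counts in the wild-type libraries, 170, 184 and 198 in those of *hrde-1*, and 4, 20 and 23 in those of *hrde-2*. Its mean rose 17.4-fold, from 1.12 ± 0.368 to 19.5 ± 3.59 CPM (SD, n = 3), and the *hrde-2* mean was 1.34 ± 0.794 CPM. The log2 fold change of F49F1.7 was 4.05 in *hrde-1* (SE 0.46, edgeR adjusted p = 2.98e-04), 0.23 in *hrde-2* (SE 0.48, adjusted p = 0.797) and -3.82 between the mutants (SE 0.44, adjusted p = 5.57e-04), and its calls held in all alternatives run. The gene thus had the pattern of the 7 without belonging to them. The mucin-like gene *mul-1*, which follows F49F1.7, had a log2 fold change of 0.016 in *hrde-1* (SE 0.67, adjusted p = 0.992), and the nearest tested gene on the other side of WBGene00018648, the pseudogene WBGene00019932 at 13509 bp, had -0.075 (SE 0.46, adjusted p = 0.943).

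Beside *spp-21*, the neighbour changed in the opposite direction. T25C12.3, a protein-coding gene on the minus strand (chromosome X, 11491087 to 11499999), lies 592 bp from *spp-21*, which is on the plus strand, so that the ends of both genes face each other. T25C12.3 had 8745, 6370 and 5080 counts in the wild-type libraries, 983, 1212 and 994 in those of *hrde-1*, and 7524, 7879 and 5544 in those of *hrde-2*. Its mean fell 7.66-fold, from 868 ± 303 to 113 ± 28.6 CPM (SD, n = 3), and was 642 ± 174 CPM in *hrde-2*. T25C12.3 changed by -2.94 on the log2 scale in *hrde-1* (SE 0.31, edgeR adjusted p = 1.86e-04), -0.44 in *hrde-2* (SE 0.29, adjusted p = 0.354) and 2.50 between the mutants (SE 0.31, adjusted p = 9.45e-04). These calls held in all alternatives run. Reads were counted without regard to strand, but the annotated genes do not overlap. The level of T25C12.3 was high where that of *spp-21* was at or under the floor, in wild-type and *hrde-2*. On the other side of *spp-21*, the nearest tested gene was the small nucleolar RNA gene T25C12.12 at 5205 bp (log2 fold change -0.26 in *hrde-1*, SE 0.68, edgeR adjusted p = 0.859). The family member *spp-9* had at most 1 read in a library, and *lin-14*, a regulator of developmental timing, had a log2 fold change of -0.051 in *hrde-1* (SE 0.44, edgeR adjusted p = 0.960).

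Around C15B12.4 and C15B12.8 the rise ended at the pair. C15B12.1 starts 92 bp after C15B12.8 on the same strand and had 49, 20 and 16 counts in the wild-type libraries, 28, 19 and 13 in those of *hrde-1*, and 42, 42 and 33 in those of *hrde-2* (log2 fold change in *hrde-1* -0.81, SE 0.50, edgeR adjusted p = 0.394). On the other side *pept-1*, the intestinal oligopeptide transporter, 8598 bp from C15B12.4, stood at -0.86 on the log2 scale (SE 0.43, adjusted p = 0.303), and at -0.85 with adjusted p = 0.0152 when no filter on low counts was used. Of the genes around the pair that were not tested, *gar-1*, a muscarinic acetylcholine receptor gene, had the most reads, 51 over all 9 libraries.

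Next to *ugt-46*, F28C10.3 at 1551 bp had 63, 94 and 34 counts in the wild-type libraries, 118, 84 and 122 in those of *hrde-1*, and 83, 85 and 64 in those of *hrde-2*, with a log2 fold change of 0.58 in *hrde-1* (SE 0.28, edgeR adjusted p = 0.296). B0310.2, at 18985 bp on the other side of *ugt-46*, had -0.24 (SE 0.35, adjusted p = 0.736). For F41G4.7 the nearest tested genes were F41G4.8 at 6950 bp, with a log2 fold change of 0.36 in *hrde-1* (SE 0.68, adjusted p = 0.801), and *sto-5* at 14319 bp, with -0.20 (SE 0.54, adjusted p = 0.864).

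**Figure D4:**
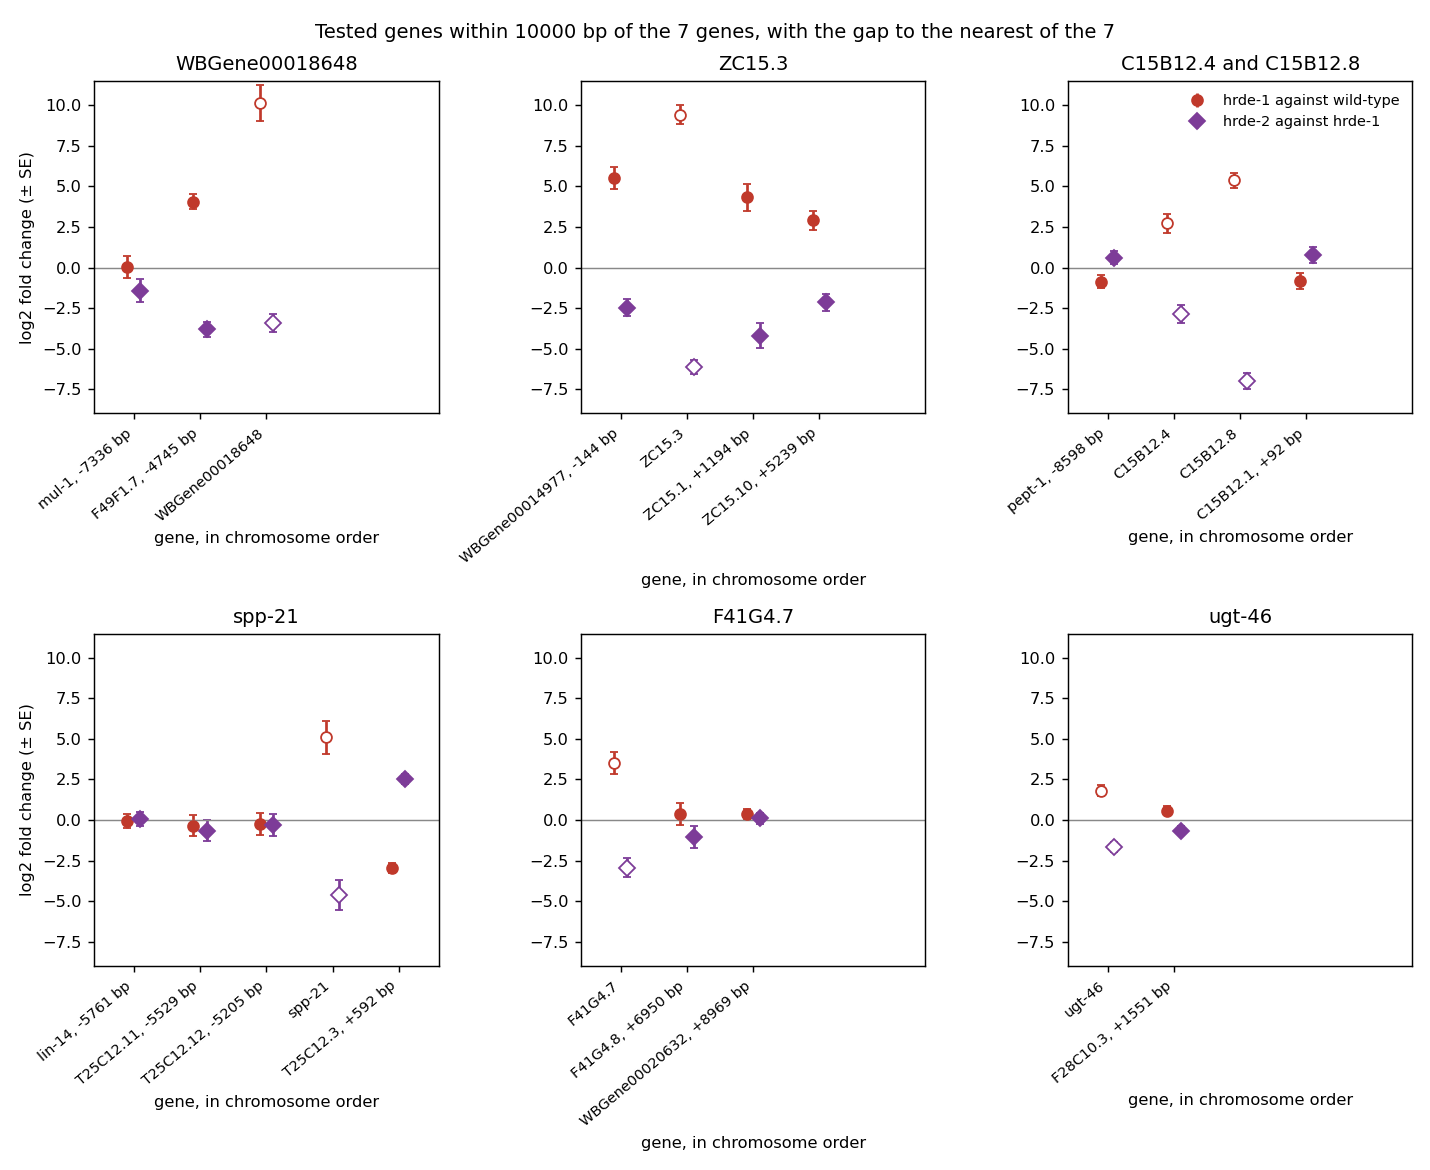
Log2 fold change of the 7 genes (open symbols) and of the 14 tested genes within 10000 bp of them (filled symbols), in chromosome order, for *hrde-1* against wild-type (circles) and *hrde-2* against *hrde-1* (diamonds), with bars of 1 SE; labels give the gap to the nearest of the 7. WBGene00014977, ZC15.1, ZC15.10 and F49F1.7 have the signs of the 7 genes, T25C12.3 has the opposite signs, and the other neighbours lie between -1.43 and 0.78.

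The families of *ugt-46* and *spp-21* were examined to see whether their relatives changed too. Of 66 other *ugt* genes, 43 were tested. In *hrde-1* against wild-type 0 of them were called by edgeR (1.55% of all genes were), and 4 had an unadjusted p under 0.05 (18.2% of all genes had). DESeq2 called 2 of the 43. It also called more of all genes than edgeR, as given below, so these 2 calls are not to be set against the 1.55%. The median of their log2 fold changes was 0.17. Among them *ugt-41* was called higher in *hrde-2* (log2 fold change 1.76, SE 0.42, edgeR adjusted p = 0.0164) and *ugt-18* lower (-3.17, SE 0.71, adjusted p = 0.0121), and between the mutants *ugt-41* was called higher (1.53, SE 0.41, adjusted p = 0.0464). These calls were 4.65% of the *ugt* genes tested in *hrde-2* and 2.33% between the mutants, against 11.8% and 5.67% of all genes. With the replicate number as a block, 2 *ugt* genes were called between the mutants, 1 in each direction. Each of the 3 calls was lost in fits without single libraries (adjusted p from 0.0512 to 0.216). Without wild-type replicate 1, the *ugt* genes called numbered 7 in *hrde-1* against 10 in *hrde-2*, and without *hrde-1* replicate 1, 2 were called in *hrde-1*. Calls over all genes also rose in such fits, to at most 1658 in *hrde-1* and 2797 in *hrde-2*, so these counts are not read as a change of the family. By level per kilobase *ugt-46* took place 7 of the 67 *ugt* genes in wild-type, place 3 with *hrde-1* mutated and place 6 with *hrde-2* mutated. Its *hrde-1* level of 62.2 CPM per kilobase was below that of *ugt-62* (171) and *ugt-22* (85.1).

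Of 29 other *spp* genes, 16 were tested. In *hrde-1* against wild-type 0 were called higher and 1 lower, where 1.24% and 0.313% of all genes tested were. The latter was *spp-23* (log2 fold change -1.20, SE 0.22, edgeR adjusted p = 0.0147, lost without *hrde-1* replicate 1 or 2 with adjusted p = 0.0796 and 0.104). In *hrde-2*, 10 of the 16 were called lower (62.5%, where 4.25% of all genes were called lower), among them *spp-18* (-1.66, SE 0.22, adjusted p = 5.56e-04), *spp-3* (-1.15, SE 0.18, adjusted p = 0.00116) and *spp-4* (-1.35, SE 0.21, adjusted p = 0.00152), along with *spp-2*, *spp-5*, *spp-8*, *spp-10*, *spp-14*, *spp-17* and *spp-25*. Between the mutants *spp-23* was higher (1.24, SE 0.22, adjusted p = 0.00918, or 0.0691 without *hrde-2* replicate 2), where 3.22% of all genes were called higher. In that contrast *spp-2*, *spp-3*, *spp-8*, *spp-10* and *spp-18* were lower, where 2.45% of all genes were. With the replicate number as a block, *spp-2* lost this call (edgeR adjusted p = 0.0509). Leaving out replicate 1 of wild-type or replicate 3 of *hrde-2* brought the 10 calls in *hrde-2* to 6, and they were 5 without *hrde-2* replicate 1 or 2. Between the mutants, 3 were called in all without *hrde-1* replicate 1, 2 without *hrde-2* replicate 1 or 3, and 1 without *hrde-2* replicate 2. As given above, the summed intestine markers were also lower in *hrde-2*, and their part in the levels of the *spp* genes was not tested. In level, *spp-21* was a minor member: it took place 24 of 30 *spp* genes in wild-type, place 16 with *hrde-1* mutated and place 22 with *hrde-2* mutated, and its 5.74 CPM per kilobase in *hrde-1* compared with 2123 for *spp-5*.

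Genes with a similar profile were sought by the correlation of log2 CPM over the 9 libraries, which share their depth and their tissue makeup, so that r is a description. Between the 7 genes r ranged from 0.706 to 0.951 over the 21 pairs, with a median of 0.871. The 7 genes were picked for the same pattern over these libraries, so a high r between them follows from the choice and supports nothing. Closest to the mean profile of the 7 were the nitrilase gene *nit-1* (r = 0.988), Y20F4.4 (0.981), the glutathione S-transferase gene *gst-5* (0.981), *fbxa-11*, which codes for an F-box protein (0.977), and C44B12.6 (0.977). For WBGene00018648 the closest were *linc-29* (0.984), T09F5.12 (0.982) and the glutathione peroxidase gene *gpx-8* (0.979), and for ZC15.3 *gpx-8* (0.988), Y23H5A.8 (0.986) and T09F5.12 (0.980). C15B12.8 came nearest to T11F9.10 (0.968), WBGene00022587 (0.954) and *gst-5* (0.954), and C15B12.4 to *pcca-1*, a subunit of propionyl-CoA carboxylase (0.961), *crm-1* (0.960) and *fbxa-26* (0.959). For *spp-21* they were F37D6.3 (0.972), F16B4.6 (0.970) and the ZC15.3 neighbour ZC15.1 (0.970). F41G4.7 was closest to C14C6.2 (0.974), the receptor tyrosine kinase gene *cam-1* (0.965) and C44B12.6 (0.958), and *ugt-46* to *nit-1* (0.980), Y68A4A.13 (0.972) and *gst-5* (0.961).

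The log2 fold change of these similar genes in *hrde-1* ran from 0.38 for *pcca-1* to 6.69 for Y23H5A.8, and that of the 7 genes from 1.82 to 10.14. In the order wild-type, *hrde-1* and *hrde-2*, T09F5.12 stood at 3.90, 73.9 and 10.7 CPM and *gpx-8* at 0.657, 12 and 1.79 CPM, so that both stayed above wild-type in *hrde-2* as WBGene00018648 and ZC15.3 did. *nit-1* stood at 2.87, 35.9 and 3.02 CPM and *gst-5* at 22.1, 59.0 and 21.6 CPM, back at the wild-type level in *hrde-2* as *ugt-46* was. By contrast *pcca-1*, the gene most like C15B12.4, stood at 103, 134 and 97.8 CPM and was not called in any contrast (edgeR adjusted p = 0.319 in *hrde-1*).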

How the data were processed

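Polyadenylated RNA of 9 whole-animal samples was sequenced with a strand-specific kit. According to the study's methods and the file headers, the authors used Trimmomatic 0.39 for trimming and HISAT2 2.2.1 for alignment to genome release WS258, and counted reads with featureCounts of Subread 2.0.1. The deposited tables hold raw counts, the reads on the exons of each gene, without normalization. The command kept in the file headers sets no strand option and leaves out multi-mapping reads and reads on more than 1 gene. Values of genes with near-identical copies can therefore be too low, and reads from either strand add to a gene.

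Sample titles gave the groups and the replicate numbers. The analysis used edgeR 4.0.16 under R 4.3.3. The filter filterByExpr left 12141 genes, TMM factors (trimmed mean of M-values) scaled the libraries, and a robust quasi-likelihood model with genotype as its term was fitted to all 9 libraries. Adjusted p-values are Benjamini-Hochberg values over these genes, and an adjusted p under 0.05 counted as a call. The SE given with a log2 fold change, also drawn as bars, is its absolute value divided by the square root of the F statistic of the quasi-likelihood test. It was thus derived from the test and was not estimated separately, and where a group held no reads it depends on the prior count too. The biological coefficient of variation was 27.0%. The study's methods name DESeq2 for differential expression; here DESeq2 1.42.0 served as an alternative. Whether equal replicate numbers pair libraries was checked by the correlation of their deviations from the group means. Between *hrde-1* and *hrde-2* r was 0.15, 0.11 and 0.25, all above 0.1, and the titles do not state a pairing. Between wild-type and *hrde-1* r was -0.062, -0.093 and -0.044, and between wild-type and *hrde-2* 0.093, -0.25 and 0.20. Libraries with unequal numbers were not compared in this way, so these values cannot decide whether the numbers pair libraries. The main fit took all libraries as unpaired, and the replicate number as a block was run as an alternative.

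A group in which every library held at most 3 counts was set to 3 counts per library. The fold against it divides the mean of the other group by that floor. It is a lower bound for the counting error of the group at the floor only, and takes in no error of the other group's mean. Likeness was Pearson's r of log2 CPM with a prior count of 2. Positions come from the count tables (WBcel235, the first base being 1); all 7 genes are in the Ensembl annotation on the same chromosome and strand, 3 of them with the same start and end. Gene types were read from that annotation, and symbols from a separate list of gene names.

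Named are the 7 genes, the nearest tested gene on each side of each, every called gene within 10000 bp, every called *ugt* and *spp* gene, the 3 genes most like each of the 7 and the 5 most like their mean profile, and the targeted genes; *mul-1*, *spp-9*, *lin-14*, *gar-1*, *ugt-22* and *ugt-62* were named after their values were seen. The 7 genes and all lists were chosen with earlier results of these data known. The alternatives were DESeq2 size factors, library size alone, no filter or a mean of at least 1 CPM, the DESeq2 test, fits of only 6 libraries, the replicate number as a block, each library left out in turn, an adjusted p under 0.01, removal of ribosomal RNA genes, and windows of 5000 and 25000 bp. The code was tested on simulated counts.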

Additional observations from a re-analysis of the deposited data

How the results depend on the processing

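The 7 genes kept the sign of their log2 fold changes in *hrde-1* against wild-type and in *hrde-2* against *hrde-1* under every alternative run. Their fitted values moved by more than 1 SD of replicates in 22 of 371 cases. Low counts limit *spp-21*, F41G4.7 and C15B12.4, and wild-type replicate 1 and single mutant libraries move the number of calls most.

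Genes called in *hrde-1* against wild-type (188) were 659 with no filter on low counts, 567 with DESeq2, 112 in the fit of 6 libraries, 86 at an adjusted p under 0.01, and 105 to 1658 with a library left out. In *hrde-2* against wild-type (1435) they were 610 at 0.01 and 617 to 2797 with a library left out. In *hrde-2* against *hrde-1* (688) they were 1372 with no filter, 1147 with DESeq2, 1393 with 6 libraries, 140 at 0.01, and 90 to 1617 with a library left out. Genes higher in *hrde-1* and not called higher in *hrde-2* (62) were 217 with no filter, 164 with DESeq2, 38 at 0.01, and 35 to 229 with a library left out.

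Called neighbours in the 3 contrasts (5, 1 and 5) were 3, 0 and 2 at 0.01. In *hrde-2* against wild-type they were 0 with 6 libraries and 2 in the window of 25000 bp. In *hrde-1* they rose to 6 in that window and to 6 with no filter, where *pept-1* was called, and between the mutants to 7 in that window. With a library left out they were 3 to 5, 0 to 1 and 2 to 5.

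Called *ugt* genes (0, 2 and 1) were 3, 4 and 5 with no filter. With DESeq2 they were 2 in *hrde-1* and 2 between the mutants. Between the mutants they were also 2 with library size alone, with 6 libraries and with the replicate block. At 0.01 they were 0 in *hrde-2* and 0 between the mutants, and with a library left out 0 to 7, 0 to 10 and 0 to 2. Called *spp* genes (1, 10 and 6) were 2 in *hrde-1* with no filter and with DESeq2 and 0 with 6 libraries, and 0, 5 and 2 at 0.01. With a library left out they were 0 to 2, 5 to 9 and 1 to 7.

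With the replicate block, 154, 1331 and 518 genes and 7, 2 and 7 of the 7 genes were called, and 3 of the named genes lost a call: ZC15.10 between the mutants (log2 fold change -2.19, edgeR adjusted p = 0.0511), *spp-2* between the mutants (-1.84, adjusted p = 0.0509) and *spp-14* in *hrde-2* against wild-type (-0.66, adjusted p = 0.0531). Between the mutants 4 neighbours were called in place of 5. The block changed no other call of a named gene.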

Other observations

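The 49 genes outside the 7 that were called higher in *hrde-1* than in wild-type and lower in *hrde-2* than in *hrde-1* include some with well-known functions, named here after their values were seen. The flavin monooxygenase gene *fmo-2* had log2 fold changes of 4.36 in *hrde-1*, -3.99 in *hrde-2* and -8.35 between the mutants, the lowest of the 56 in the last contrast. Its edgeR adjusted p-values were 0.0396, 0.112 and 0.00448, so *fmo-2* was not called in *hrde-2* against wild-type. *cysl-2*, a cysteine synthase-like gene, had 3.21, 0.13 and -3.09, and *rhy-1* had 1.52, 0.41 and -1.12. Of 44 *gst* (glutathione S-transferase) genes, a family looked at after its hits were seen, 27 were tested. In *hrde-1*, 3 of these were called higher by edgeR and 0 lower, where 1.24% and 0.313% of all genes tested were, and the median log2 fold change of the 27 was 0.40. The 3 belong to the 56, with log2 fold changes of 2.42, -0.0035 and -2.43 (*gst-4*), 1.41, -0.035 and -1.45 (*gst-5*), and 2.24, 0.26 and -1.98 (*gst-12*). The group also holds the neighbours described above, ZC15.1, ZC15.10, WBGene00014977 and F49F1.7.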
